A study of Homo sapiens with 8 samples.

Results

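Surfactant and airway secretory genes were described here in an EML4-ALK lung adenocarcinoma line and its ceritinib-resistant derivatives. The group comprised 10 named genes of the 18132 genes on the array, namely SFTPA1, SFTPA2, SFTPB, SFTPD, NAPSA, LAMP3, SCGB3A1, BPIFA1, WFDC2 and PAEP. Every probe set whose annotated symbols included one of these names was taken, which gave 24 probe sets, and the brightest probe set of each gene over the 8 arrays led. The leading probe set of 9 of the 10 genes passed the filter on dim signals, a log2 signal above 5.36 in at least 2 arrays, and SFTPD did not. The filter can keep a gene through the line in which it is bright, so the counts below describe the 9 genes tested.

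RNA levels were measured on 8 single-colour arrays, 1 for each condition. H3122-LR3 cells (LR3) were measured with 1000 nM ceritinib for 6 h and untreated. H3122-LR2 cells (LR2) and the H3122 cells they were compared with (parental) were each measured with 1000 nM ceritinib for 6 h, with 1000 nM crizotinib for 6 h, and untreated. H3122 is an established human lung adenocarcinoma line that carries the EML4-ALK fusion kinase, ceritinib and crizotinib are ALK kinase inhibitors, and LR2 and LR3 are ceritinib-resistant cells of H3122. All lines carried the fusion per the labels and grew in RPMI with serum, each resistant line is 1 derivative, and the sources used here do not state how the lines were selected. No condition had a replicate. The spread behind each comparison of lines or of agents therefore came mainly from how a line difference varied across agents. The spread behind any test here says nothing of separately grown cultures.

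Pulmonary surfactant is the lipid and protein film that lowers surface tension in the alveoli. Alveolar type II cells make it, store it in lamellar bodies and secrete it, and its collectins SP-A and SP-D also bind microbes. Conducting airways are lined by club and other secretory cells that release small antimicrobial and immunomodulatory proteins, among them secretoglobins and BPI-fold proteins. The transcription factor NKX2-1, with FOXA factors, drives many of these genes in the lung, and lung adenocarcinomas often keep part of this programme.

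In LR3 cells, SFTPA1, SFTPA2, LAMP3, SCGB3A1 and BPIFA1 fell relative to parental cells, and no tested gene of the group rose. In LR2 cells, SCGB3A1, LAMP3 and NAPSA rose relative to parental cells, while BPIFA1, WFDC2 and PAEP fell. BPIFA1 was the only one of the 9 tested genes that passed the test in the same direction in both resistant lines, and SCGB3A1 and LAMP3 passed it in opposite directions. SFTPB passed no line comparison, with signals of 5.40 to 5.58 that lay just above the floor of 5.36. In bulk RNA, fewer cells that express a gene and less RNA per cell cannot be told apart. Each difference is a log2 value fitted by limma with line and agent as additive terms. A difference was called when its p, adjusted by Benjamini-Hochberg over all 10527 genes tested, was under 0.05.

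Against parental cells, 3 of the 9 tested genes were called higher in LR2 and 3 were called lower, where 12.8% of all tested genes were called higher and 9.68% lower. In LR3 against parental cells, 0 of 9 were called higher and 5 lower, where 9.53% of all tested genes were called higher and 12.1% lower. In LR3 against LR2 cells, 2 of 9 were called higher and 6 lower, where 7.29% of all tested genes were called higher and 12.3% lower. SFTPA1 and SFTPA2 each count among the lower genes of both LR3 comparisons. Their leading probe sets cannot be taken as separate measurements, so these counts may hold 1 signal 2 times. The median difference over the 9 genes was -0.11 in LR2 against parental cells, where the median over all tested genes was 0.02. The same medians were -0.52 and 0.01 in LR3 against parental cells, and -1.34 and -0.02 in LR3 against LR2 cells. The comparisons share arrays of the parental or resistant lines, so they are not independent of each other. The genes of the group were chosen with earlier results of these data known. These counts and medians are therefore no test of the group against all genes. On the 2 matched pairs of arrays alone, the 5 genes called lower in LR3 against parental cells kept their direction, and none of the 5 passed the test (adjusted p of 0.0788 to 0.11).

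**Figure D1:**
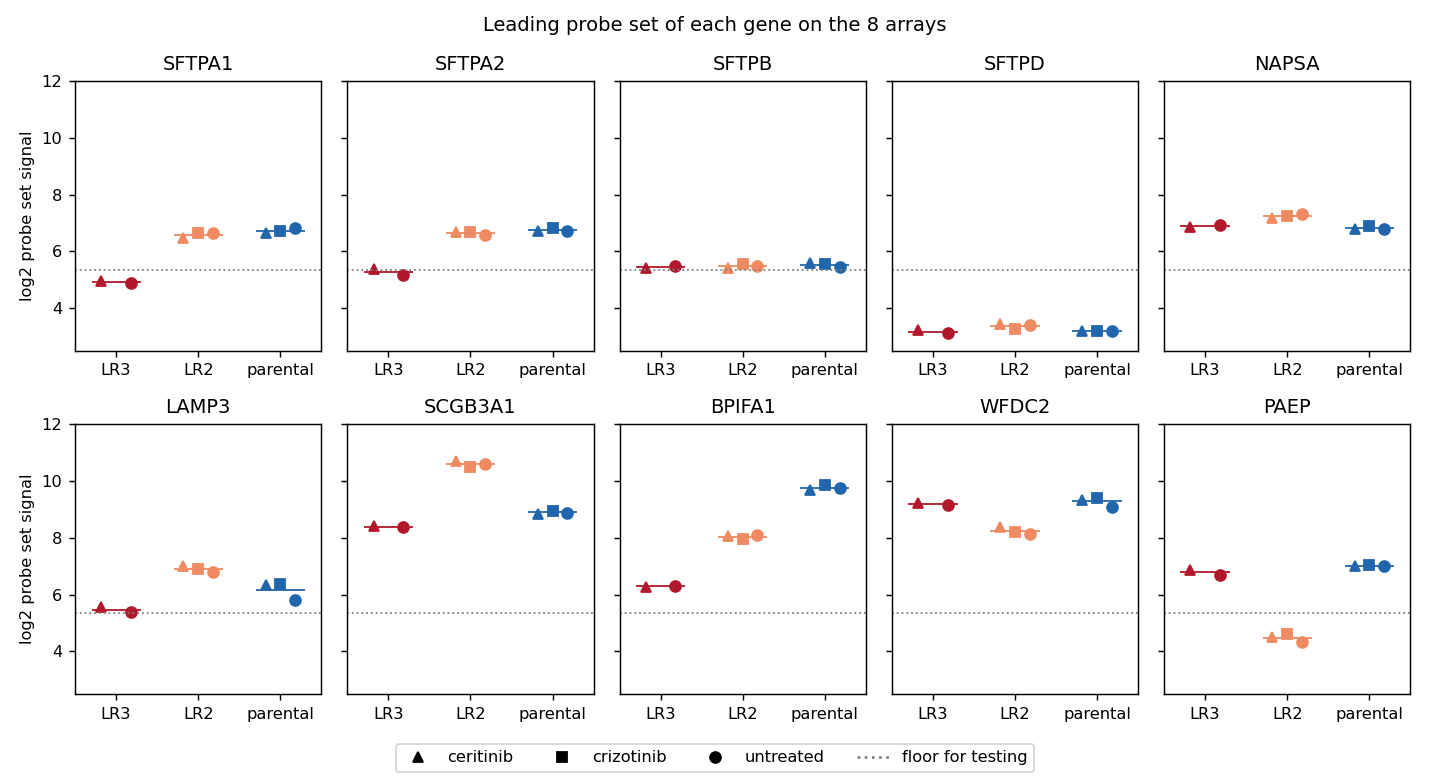
Log2 signal of the leading probe set of each of the 10 genes, 1 panel a gene, with the lines LR3, LR2 and parental on the x axis and 1 point per array (triangle ceritinib, square crizotinib, circle untreated). Horizontal bars mark line means and the dotted line marks the floor for testing at 5.36. The 3 lines separate without overlap for BPIFA1, SCGB3A1 and LAMP3, SFTPA1 and SFTPA2 are low in LR3 alone, and PAEP and WFDC2 are low in LR2 alone.

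**Figure D2:**
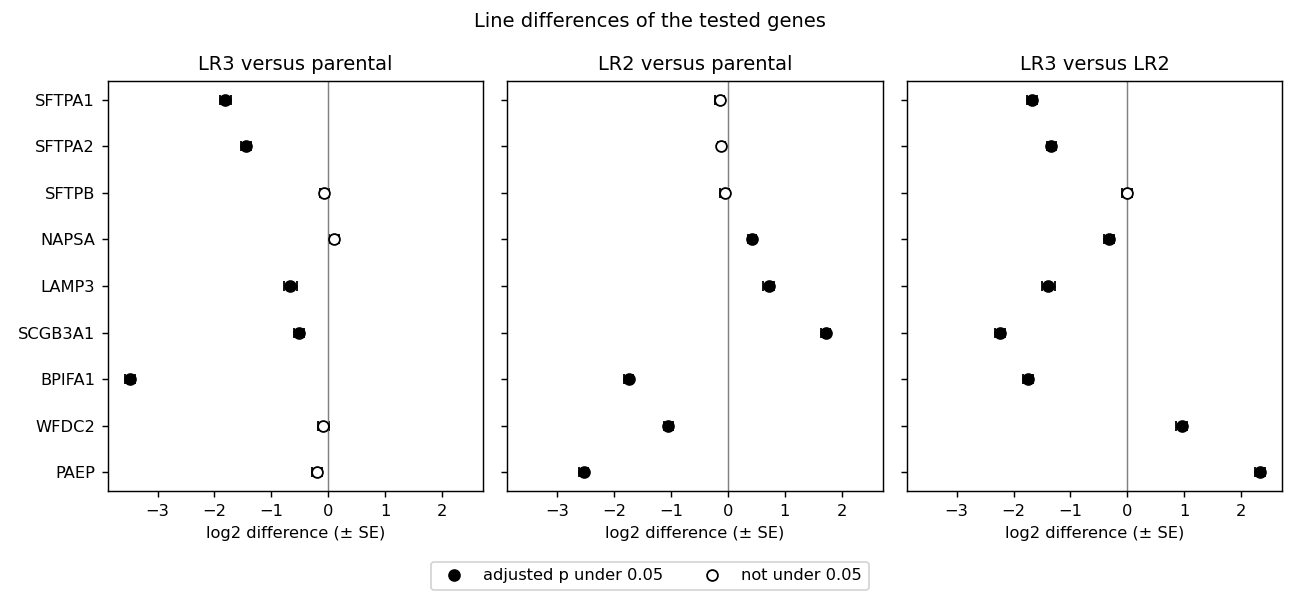
Log2 differences between lines with their SE for the 9 tested genes, from the additive model (LR3 versus parental, LR2 versus parental and LR3 versus LR2). Filled points have an adjusted p under 0.05. BPIFA1 lies left of 0 in all 3 panels, and SFTPB lies at 0 in all 3.

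SFTPA1 and SFTPA2 encode the chains of SP-A, the collectin that opsonises inhaled microbes and takes part in tubular myelin. The genes are close paralogs that lie near each other on chromosome 10. Their promoters are shown because the leading probe sets of both genes fell in LR3 cells. The windows of the paralogs can also be compared base by base. Each run is the 250 bases before the annotated start, 5′ to 3′ in the direction of transcription, from RefSeq on GRCh38.p14, at chr10:79610689-79610938 on the plus strand for SFTPA1 and chr10:79560408-79560657 on the minus strand for SFTPA2. Capitals mark the FOXA core motif, searched as TGTTTAC on both strands, which reads GTAAACA here because it lies on the opposite strand.
SFTPA1: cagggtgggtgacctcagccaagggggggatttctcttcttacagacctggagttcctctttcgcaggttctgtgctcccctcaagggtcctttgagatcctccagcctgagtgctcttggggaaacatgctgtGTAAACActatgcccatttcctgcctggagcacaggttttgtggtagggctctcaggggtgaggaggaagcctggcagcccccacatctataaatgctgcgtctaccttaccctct
SFTPA2: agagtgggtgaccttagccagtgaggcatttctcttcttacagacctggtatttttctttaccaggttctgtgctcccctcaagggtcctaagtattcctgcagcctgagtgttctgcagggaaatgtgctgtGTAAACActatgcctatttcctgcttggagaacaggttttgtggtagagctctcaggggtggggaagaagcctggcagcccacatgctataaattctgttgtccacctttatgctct
Aligned with each other, the windows had 214 identical bases, 31 mismatches and 10 gaps, an identity of 87.3% over aligned bases. The motif started at position -116 from the gene start in SFTPA1 and at -117 in SFTPA2. Of the 9 genes of the group with a promoter entry, these 2 held it, against 2.98% of all 35116 promoter windows of that length. The NKX2-1 motif GCNCTNNAG, searched on both strands, was found in neither window and was found in those of SFTPB and SCGB3A1, against 14.3% of all windows. The 2 motifs overlapped in no window of the group, since no window held both. Such matches describe letters alone.

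SFTPA1 had a log2 signal of 4.94 in LR3 with ceritinib and 4.87 in untreated LR3, against 6.63, 6.72 and 6.83 in parental cells with ceritinib, with crizotinib and untreated. LR2 cells had 6.47, 6.65 and 6.65 under the same 3 conditions. The LR3 arrays lay below every other array, and the LR2 and parental ranges overlapped. SFTPA1 fell by 1.81 ± 0.09 (SE) in LR3 against parental cells (adjusted p = 3.32e-05, lower in 2 of 2 matched pairs of arrays) and differed by -1.67 ± 0.09 from LR2 cells (adjusted p = 4.37e-05). In LR2 against parental cells the difference was -0.14 ± 0.08 (adjusted p = 0.253), lower in 3 of 3 pairs. The LR3 mean of 4.91 lay below the floor of 5.36, so the fold is a bound, at least 2.58-fold lower than parental and at least 2.35-fold lower than LR2, with the brighter mean set against the floor.

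SFTPA2 had 5.38 in LR3 with ceritinib and 5.17 in untreated LR3, against 6.73, 6.81 and 6.70 in parental cells with ceritinib, with crizotinib and untreated. LR2 cells had 6.67, 6.67 and 6.57. As for SFTPA1, both LR3 arrays lay below all others, which fell within a narrow band. SFTPA2 fell by 1.45 ± 0.08 in LR3 against parental cells (adjusted p = 5.68e-05, lower in 2 of 2 pairs) and by 1.34 ± 0.08 against LR2 cells (adjusted p = 7.25e-05). These are at least 2.61-fold and at least 2.42-fold lower, since the LR3 mean of 5.28 lay below the floor too. In LR2 against parental cells the difference was -0.11 ± 0.07 (adjusted p = 0.298).

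The leading probe sets of the SP-A genes are of a type that the platform marks as matching transcripts of several genes, so they cannot be taken as separate measurements of the paralogs. A further 3 probe sets were annotated to both genes. Of these, 2 were too dim to test and had their lowest values in LR3, at 3.58 and 3.24 against 4.27 to 4.39 in parental cells for one, and at 3.89 and 3.97 against 4.47 to 4.85 in parental cells for the other. The third, of the type marked for possible cross-hybridization, had 6.05 and 5.84 in LR3, against 5.98 to 6.25 in parental cells. It did not follow the leading probe sets, with a difference of -0.16 ± 0.11 in LR3 against parental cells (adjusted p = 0.355). Why it differed was not tested.

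SFTPB encodes SP-B, the hydrophobic protein that surfactant needs to spread at the air surface. It had 5.40 and 5.49 in LR3 with ceritinib and untreated, against 5.58, 5.56 and 5.46 in parental cells with ceritinib, with crizotinib and untreated. LR2 cells had 5.41, 5.54 and 5.48, and all 3 lines overlapped. This probe set is of the type marked for possible cross-hybridization and lay just above the floor of 5.36. Whether SFTPB itself was detected is therefore uncertain. The difference was -0.07 ± 0.09 in LR3 against parental cells (adjusted p = 0.625), -0.06 ± 0.07 in LR2 against parental cells (adjusted p = 0.625) and -0.01 ± 0.09 in LR3 against LR2 cells (adjusted p = 0.955). The other 5 SFTPB probe sets, 1 of them shared with EDNRB, were too dim to test, with signals between 2.18 and 5.23.

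SFTPD encodes SP-D, the other lung collectin. Its single probe set stayed at 3.22 and 3.11 in LR3, at 3.44, 3.26 and 3.42 in LR2, and at 3.21, 3.19 and 3.21 in parental cells, in the order ceritinib, crizotinib where measured, and untreated. Those values lay near the median of 3.44 over 359 probe sets of olfactory receptor genes, which lung cells are not known to use and which served as a guide to background. The 95th percentile of the olfactory receptor probe sets was 5.01, and SFTPA1 in LR3 and PAEP in LR2 also lay below it. Differences near background may be compressed on arrays, so the sizes for those genes are uncertain.

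NAPSA encodes napsin A, an aspartic protease of lamellar bodies that processes pro-SP-B and serves as a marker of lung adenocarcinoma. It had 7.18, 7.24 and 7.31 in LR2 with ceritinib, with crizotinib and untreated, against 6.79, 6.88 and 6.78 in parental cells. LR3 cells had 6.87 with ceritinib and 6.94 untreated. Every LR2 array lay above every array of the other lines, which overlapped. NAPSA rose by 0.43 ± 0.07 in LR2 against parental cells (adjusted p = 0.00451, 1.34-fold, higher in 3 of 3 pairs), and was 0.10 ± 0.08 higher in LR3 against parental cells, which did not pass the test (adjusted p = 0.407). In LR3 against LR2 cells it fell by 0.32 ± 0.08 (adjusted p = 0.0277), a call that was lost in 7 of 18 alternative settings, among them leaving out the LR3 ceritinib array (adjusted p = 0.171), the LR3 untreated array (0.143), the LR2 ceritinib array (0.0735) and the LR2 untreated array (0.15). The second NAPSA probe set, which may cross-hybridize, gave 0.81 ± 0.11 in LR2 against parental cells (adjusted p = 0.00235). The paralog NAPSB, which lies next to NAPSA on chromosome 19, was not called in LR2 against parental cells (-0.15, adjusted p = 0.238).

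LAMP3, also called DC-LAMP, is a lysosomal membrane glycoprotein found in lamellar bodies of type II cells and in mature dendritic cells. It had 7.01, 6.90 and 6.79 in LR2 with ceritinib, with crizotinib and untreated, against 6.34, 6.37 and 5.82 in parental cells. LR3 cells had 5.56 with ceritinib and 5.37 untreated. The 3 lines did not overlap, and untreated parental cells lay well below the inhibitor-treated parental arrays. LAMP3 rose by 0.72 ± 0.10 in LR2 against parental cells (adjusted p = 0.00207, 1.65-fold, higher in 3 of 3 pairs). It fell by 0.66 ± 0.11 in LR3 against parental cells (adjusted p = 0.0063, 1.58-fold, lower in 2 of 2 pairs) and differed by -1.39 ± 0.11 from LR2 cells (adjusted p = 0.000282, 2.61-fold). The call in LR3 against parental cells was lost without the LR3 ceritinib array, at -0.57 (adjusted p = 0.0779). The second LAMP3 probe set passed the filter through LR2 arrays alone, at 5.65 with ceritinib and 5.73 with crizotinib. Its parental and LR3 values all lay under the floor of 5.36. It gave 0.65 ± 0.10 in LR2 against parental cells, a size that is uncertain. In LR3 against parental cells it did not pass the test (adjusted p = 0.0765).

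SCGB3A1 is a secretoglobin secreted by airway epithelium. It had 10.72, 10.51 and 10.61 in LR2 with ceritinib, with crizotinib and untreated, against 8.85, 8.94 and 8.89 in parental cells. LR3 cells had 8.41 with ceritinib and 8.37 untreated. The LR2 arrays lay far above the rest, and the LR3 arrays lay below the parental arrays without overlap. SCGB3A1 rose by 1.72 ± 0.08 in LR2 against parental cells (adjusted p = 1.92e-05, 3.29-fold, higher in 3 of 3 pairs). It fell by 0.52 ± 0.09 in LR3 against parental cells (adjusted p = 0.00719, 1.43-fold, lower in 2 of 2 pairs), and was 4.72-fold lower in LR3 than in LR2 (-2.24 ± 0.09, adjusted p = 1.41e-05). The call in LR3 against parental cells was lost when either LR3 array was left out, at -0.52 without LR3 ceritinib (adjusted p = 0.0671) and -0.52 without untreated LR3 (adjusted p = 0.0625). SCGB3A1 had 1 probe set.

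BPIFA1, also called SPLUNC1, is a secreted BPI-fold protein of the upper airways with antimicrobial and surface-active properties. It had 6.27 and 6.30 in LR3 with ceritinib and untreated, and 8.05, 7.94 and 8.09 in LR2 with ceritinib, with crizotinib and untreated, against 9.69, 9.86 and 9.76 in parental cells. The 3 lines were separated with gaps wider than any spread within a line. BPIFA1 averaged 6.29 ± 0.02 in LR3 (SD over 2 arrays of different agents), 8.03 ± 0.08 in LR2 and 9.77 ± 0.09 in parental cells (SD over 3 arrays each). It fell by 3.48 ± 0.09 (SE) in LR3 against parental cells (adjusted p = 2.72e-06, 11.2-fold, lower in 2 of 2 pairs) and differed by -1.74 ± 0.08 in LR2 against parental cells (adjusted p = 1.92e-05, 3.35-fold, lower in 3 of 3 pairs). The difference of LR3 from LR2 was -1.74 ± 0.09 (adjusted p = 4.29e-05).

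BPIFA1 lies in a cluster of related BPI-fold genes on chromosome 20, of which 9 were on the array. The neighbours were looked at after the BPIFA1 values were seen. Of the 9, 4 were bright enough to test, BPIFA1 among them. BPIFA1 prompted this look, so its calls do not count here. BPIFA2, BPIFB1 and BPIFB2 were also called lower in LR3 and in LR2 than in parental cells. Of all tested genes, 12.1% and 9.68% were called lower. In some fits with 1 array left out, BPIFA2 and BPIFB2 lost their LR2 calls and BPIFB2 lost its LR3 call. BPIFB1, next to BPIFA1 in gene order, averaged 8.41 in LR3 and 9.07 in LR2, against 9.79 in parental cells. BPIFA2 averaged 7.48 in LR3 and 8.04 in LR2, against 8.44 in parental cells (-0.95 with adjusted p = 0.00067 and -0.40 with adjusted p = 0.011). BPIFB2, further along the cluster, averaged 4.93 and 5.05 in LR3 and LR2, against 5.84 in parental cells. The means of both resistant lines lay under the floor. BPIFB2 passed the filter through the parental arrays, at 5.76 to 5.91, and its other arrays had 5.37 or less. Its lower calls are therefore no separate support. The other 5 members averaged between 3.45 and 5.31 in every line. CDK5RAP1, on the far side of BPIFB1, was called in neither line against parental cells (0.06 in LR3 and -0.05 in LR2).

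**Figure D3:**
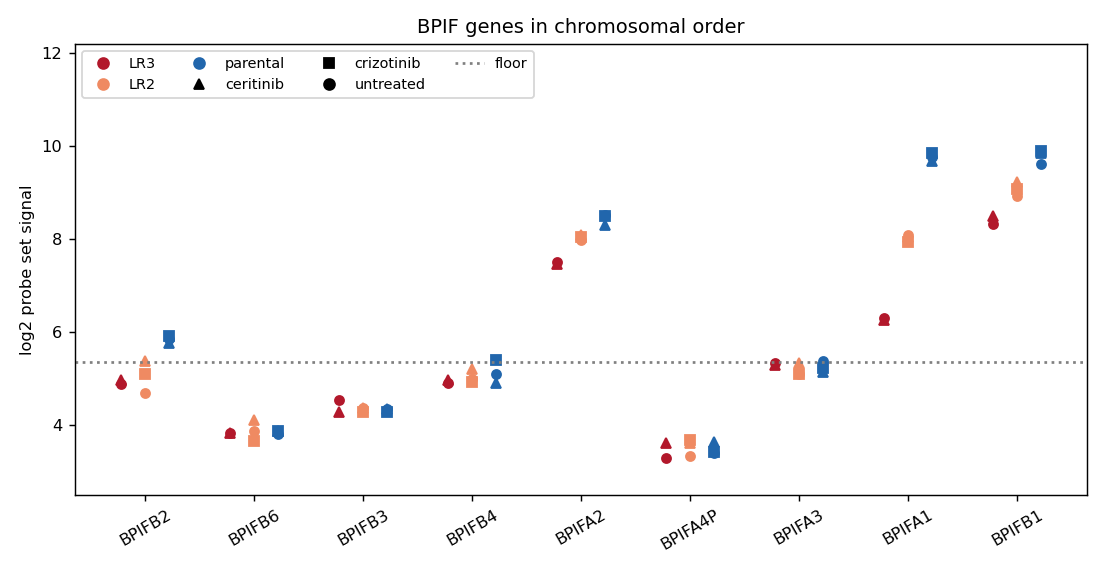
Log2 signal of 9 BPI-fold genes in the order in which they lie on chromosome 20 (x axis), with 1 point per array, colours for LR3, LR2 and parental, and the floor at 5.36 as a dotted line. BPIFA2, BPIFA1 and BPIFB1 step down in the order parental, LR2, LR3, and the 5 untested genes lie near or under the floor.

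WFDC2, also called HE4, is a secreted protein with WAP domains, as found in protease inhibitors, and is made by airway epithelium and by lung adenocarcinomas. It had 8.39, 8.19 and 8.13 in LR2 with ceritinib, with crizotinib and untreated, against 9.34, 9.40 and 9.10 in parental cells. LR3 cells had 9.21 with ceritinib and 9.14 untreated, inside the parental range. WFDC2 fell by 1.04 ± 0.08 in LR2 against parental cells (adjusted p = 0.000238, 2.06-fold, lower in 3 of 3 pairs) and was 0.96 ± 0.10 higher in LR3 than in LR2 (adjusted p = 0.00073). In LR3 against parental cells the difference was -0.09 ± 0.10 (adjusted p = 0.565). A further 2 bright WFDC2 probe sets gave -0.90 and -1.05 in LR2 against parental cells, and the fourth was too dim to test, at 3.80 to 4.37.

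PAEP encodes glycodelin, a secreted lipocalin best known from the endometrium and also described in lung cancer. It had 4.50, 4.61 and 4.34 in LR2 with ceritinib, with crizotinib and untreated, against 7.00, 7.04 and 7.01 in parental cells. LR3 cells had 6.87 with ceritinib and 6.70 untreated. The LR2 arrays alone lay below the floor. PAEP fell by 2.53 ± 0.08 in LR2 against parental cells (adjusted p = 3.59e-06, lower in 3 of 3 pairs) and was 2.34 ± 0.09 higher in LR3 than in LR2 (adjusted p = 1.41e-05). As bounds, PAEP was at least 3.15-fold lower in LR2 than in parental cells and at least 2.69-fold higher in LR3 than in LR2. The second PAEP probe set gave a difference of -3.13 ± 0.09 in LR2 against parental cells. In LR3 against parental cells the leading probe set differed by -0.19 ± 0.09 (adjusted p = 0.155).

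**Figure D4:**
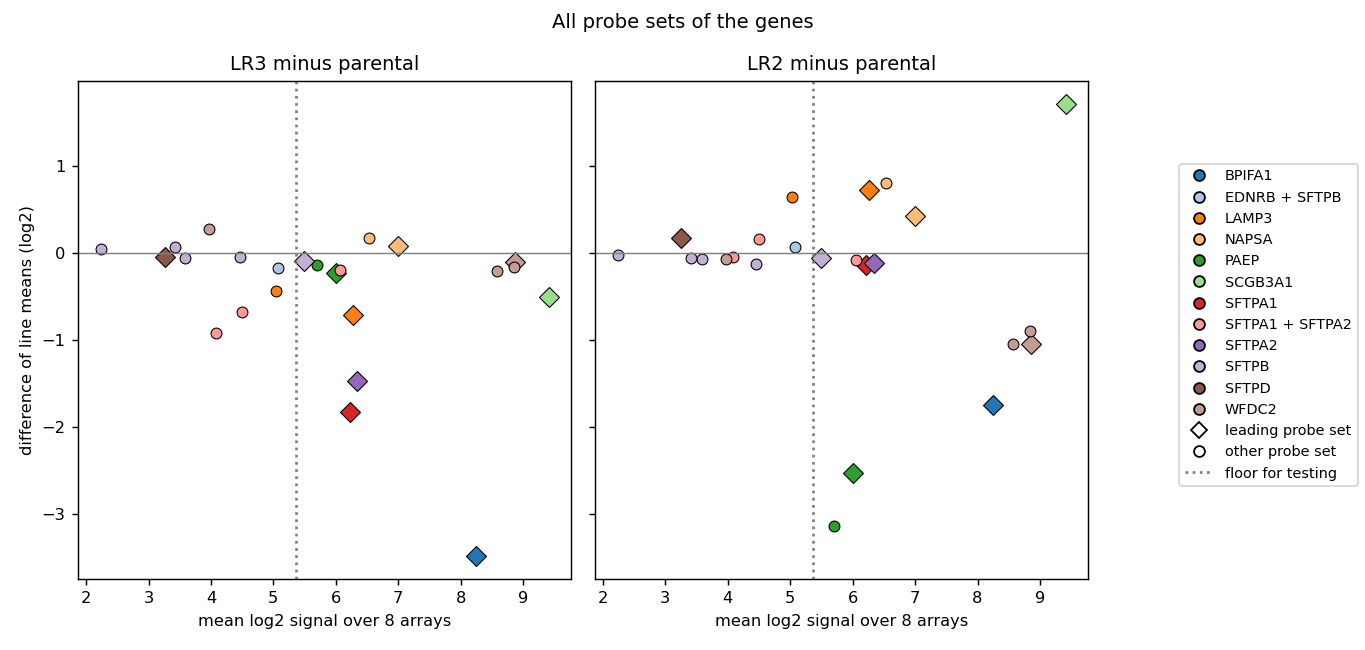
Mean log2 signal over the 8 arrays (x axis) against the difference of line means (y axis) for all 24 probe sets, in LR3 minus parental on the left and LR2 minus parental on the right. Colours give the annotated symbols, diamonds mark leading probe sets, and the dotted line marks the floor at 5.36. Tested probe sets of WFDC2, PAEP, NAPSA and LAMP3 lie on the side of 0 of their leading probe set in LR2 minus parental. The second LAMP3 probe set lies left of the floor. In LR3 minus parental, 1 probe set shared by the SP-A genes lies near 0.

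No tested gene of the group was called for an inhibitor at 6 h, and with 1 array per condition a response can be missed. In the additive model, 0 of the 9 tested genes were called for ceritinib against untreated cells (0% of all tested genes higher and 0% lower, and 2017 at an unadjusted p under 0.05). For crizotinib against untreated cells 0 of 9 were called, where 2.82% of all tested genes were called higher and 0.94% lower. For ceritinib against crizotinib the share called was 0% of all tested genes, with 637 at an unadjusted p under 0.05. With an intensity trend in limma's prior, 61 genes were called for ceritinib. Outside LAMP3 and WFDC2, the fitted differences of the tested genes lay between -0.10 and 0.11 for ceritinib and between -0.02 and 0.17 for crizotinib, with SE of 0.07 to 0.09.

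In parental cells, the leading probe set of LAMP3 had the largest single-array inhibitor responses among the leading probe sets of the group. It was 0.52 higher with ceritinib and 0.55 higher with crizotinib than untreated. In LR2 cells it was 0.22 higher with ceritinib and 0.11 higher with crizotinib, and in LR3 cells 0.19 higher with ceritinib. All 5 differences had the same sign. The additive model gave 0.31 ± 0.10 for ceritinib (adjusted p = 0.148) and 0.30 ± 0.11 for crizotinib (adjusted p = 0.161), neither of which passed the test. The second LAMP3 probe set did not follow this line pattern. In parental cells it had 4.75 with ceritinib and 5.11 with crizotinib, against 4.84 untreated, all under the floor. In LR2 cells it had 5.65 and 5.73, against 5.26 untreated. The LAMP3 values of the next model are of the leading probe set alone.

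A second model took both inhibitors as 1 condition within each line. Its spread came from the crizotinib and ceritinib arrays of parental and LR2 cells, taken as replicates though the inhibitors differ. Because LR3 had 1 inhibitor array, the LR3 errors and p-values of this model hold no spread of LR3 arrays. The share of all tested genes called was 0% for the response in parental, LR2 and LR3 cells and 0% for the difference in response of each resistant line from parental cells, while limma gave 1849, 1015, 499, 251 and 505 genes at an unadjusted p under 0.05. The LAMP3 response was 0.19 ± 0.12 in LR3 (adjusted p = 0.965) and 0.17 ± 0.10 in LR2 (adjusted p = 0.652), against 0.54 ± 0.10 in parental cells (adjusted p = 0.142). The response in LR2 minus that in parental cells was -0.37 ± 0.15 (adjusted p = 0.998), and the response in LR3 minus that in parental cells was -0.35 ± 0.16 (adjusted p = 0.91). WFDC2 was 0.24 and 0.30 higher with ceritinib and crizotinib than untreated in parental cells, and 0.26 and 0.06 higher in LR2. Its fitted differences were 0.19 ± 0.08 for ceritinib (adjusted p = 0.26) and 0.15 ± 0.10 for crizotinib (adjusted p = 0.402). The other bright WFDC2 probe sets gave 0.09 and 0.04 for ceritinib and 0.20 and 0.16 for crizotinib. In LR2 cells they had 8.28 and 7.93 with ceritinib, against 8.30 and 7.94 untreated, so they did not show the LR2 ceritinib rise.

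**Figure D5:**
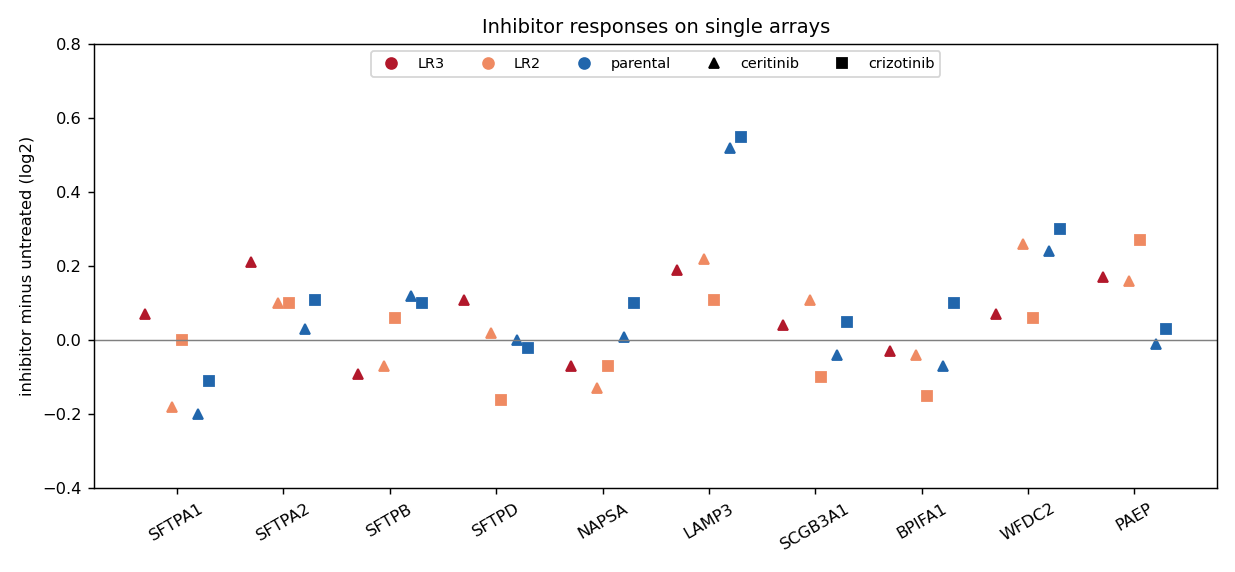
Log2 difference of each inhibitor-treated array from the untreated array of the same line (y axis) for the 10 genes, with colours for the lines LR3, LR2 and parental, triangles for ceritinib and squares for crizotinib. Points are of the leading probe sets. The parental LAMP3 points at 0.52 and 0.55 lie apart from the rest, and LR3 had no crizotinib array.

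Other surfactant, alveolar and airway genes did not move as one. Of all tested genes, 9.53% were called higher and 12.1% lower in LR3, and 12.8% and 9.68% in LR2, against parental cells. These shares apply to every list below, and the lists were chosen with earlier results of these data known. Of 20 other surfactant and alveolar genes, not all of them particular to type II cells, 10 were tested. Against parental cells, 3 were called higher and 3 lower in LR3, and 4 higher and 2 lower in LR2. HOPX, a homeodomain protein of alveolar cells, rose by 1.52 ± 0.11 in LR3 and 0.42 ± 0.09 in LR2. The lipid synthesis enzymes FASN and SCD rose in both lines (0.50 and 0.29 in LR3, 0.26 and 0.25 in LR2), and LPCAT1, which makes surfactant phosphatidylcholine, rose by 0.51 in LR2. The cell surface mucin MUC1 fell by 0.84 ± 0.09 in LR3 and 0.75 ± 0.07 in LR2, and the cholesterol carrier NPC2 fell by 0.81 and 0.61. The water channel AQP5 fell by 0.78 ± 0.17 in LR3 against parental cells. The median difference of the 10 genes was -0.05 in LR3 and 0.12 in LR2.

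Of 23 other airway secretory and club cell genes, 13 were tested. Against parental cells, 2 rose and 6 fell in LR3 (9.53% and 12.1% of all tested genes), and 6 rose and 4 fell in LR2 (12.8% and 9.68%). In LR3 against LR2 cells 0 were higher and 7 lower (7.29% and 12.3% of all tested genes). Those that fell in both resistant lines included BPIFB1, BPIFA2 and BPIFB2, which lie in 1 cluster with BPIFA1. In LR2 the lectin ITLN1 rose by 1.94 ± 0.10, the mucosal chemokine CXCL17 by 1.46 ± 0.09, AGR3 by 0.95 ± 0.14 and the secretoglobin SCGB2A1 by 0.90 ± 0.07. In LR3 the 2 genes called higher were AGR3 (0.87 ± 0.16) and ITLN1 (0.46 ± 0.11). AGR3 lay below the floor in parental cells, which gives bounds of at least 1.02-fold in LR3 and 1.30-fold in LR2. The filter kept AGR3 through arrays of the resistant lines alone, so its higher calls are no support. In some fits with 1 array left out, AGR3 and ITLN1 lost their LR3 calls. In LR3 the secretoglobin SCGB2A1 fell by 0.65 ± 0.09, at least 1.25-fold with its LR3 mean under the floor, and the vitamin B12 binder TCN1 by 0.71 ± 0.13, whereas in LR2 TCN1 rose by 0.66 ± 0.11. The BPI-fold gene BPIFB1 fell by 1.35 ± 0.08 in LR3 and 0.72 ± 0.07 in LR2 against parental cells. The median difference of the 13 genes was -0.26 in LR3 and 0.04 in LR2.

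Of 17 other WAP domain and lipocalin genes, 5 were tested, and the protease inhibitor SLPI was the 1 gene called, lower by 0.44 ± 0.09 in LR3 and by 0.97 ± 0.08 in LR2 than in parental cells. SLPI and WFDC2 both lay lowest in LR2. Of 11 other LAMP family and aspartic protease genes, 9 were on the array and 6 tested, of which 2 were lower in LR3 against parental cells, BACE2 by 0.38 ± 0.08 and LAMP1 by 0.27 ± 0.08. In LR2 against parental cells 0 of the 6 were called. Median differences from parental cells were 0.24 in LR3 and -0.10 in LR2 for the 5 WAP domain and lipocalin genes, and 0.03 and -0.12 for the 6 LAMP family and protease genes.

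Among 16 regulators of lung epithelium, 13 were tested. Against parental cells, 1 was called higher and 3 lower in LR3 (9.53% and 12.1% of all tested genes). In LR2 3 were called higher and 0 lower (12.8% and 9.68%). Their median difference was -0.17 in LR3 and 0.14 in LR2. FOXA3, a forkhead factor of secretory epithelia, passed the filter through the LR2 arrays alone and rose in LR2 against parental cells by at least 2.14-fold (adjusted p = 0.000145). FOXA3 had 6.61, 6.37 and 6.39 in LR2 with ceritinib, with crizotinib and untreated, against 5.09, 4.92 and 5.33 in parental cells. LR3 cells had 4.45 with ceritinib and 4.42 untreated. The parental and LR3 arrays all lay below the floor, so no size is given between them, although FOXA3 was among the 3 called lower in LR3. CEBPA rose by 0.49 ± 0.07 and SPDEF by 0.46 ± 0.10 in LR2, and SPDEF rose by 0.45 ± 0.12 in LR3. SOX2 was called lower in LR3, at -0.88 ± 0.24, but the matched pairs differed, at -1.57 with ceritinib and -0.30 untreated. The SOX2 value was -0.48 without the LR3 ceritinib array (adjusted p = 0.315) and -0.46 without the parental ceritinib array (adjusted p = 0.0353). SPDEF in LR3 was 0.28 without the parental ceritinib array (adjusted p = 0.0835). NKX2-1, the lung lineage factor, was not called in either resistant line. It differed by -0.30 in LR3 (adjusted p = 0.0526) and by -0.13 in LR2 (adjusted p = 0.256). Its signals were 10.38 to 11.25 over all arrays. With ceritinib NKX2-1 had 10.84 in LR3, 11.01 in LR2 and 11.25 in parental cells, against 10.38, 10.46 and 10.64 untreated. The comparison of ceritinib with untreated cells called no gene at all, so the lack of a call there is not particular to NKX2-1. Crizotinib raised NKX2-1 by 0.52 ± 0.09 (adjusted p = 0.0353), but the 396 crizotinib calls over all genes dropped to 0 without the untreated or the crizotinib array of parental or of LR2 cells.

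Each array was left out in turn for these lists, a check chosen after the values were seen. Of 25 list genes called in LR3 against parental cells, markers of cell types included, 8 were called in every such fit, namely BPIFA2, BPIFB1, FOXA3, HOPX, LUM, MUC1, NPC2 and SCGB2A1. The filter kept FOXA3 through the LR2 arrays alone, with its parental and LR3 means both under the floor. It kept LUM through the LR3 arrays alone. Of 24 called in LR2 against parental cells, 16 were called in every such fit, and BPIFA2, BPIFB2, CDH1, FASN, HOPX, KDR, SCD and SPDEF were not. The 16 included FOXA3 and LUM, and the LUM means of LR2 and parental cells both lay under the floor. AGR3 was also among the 16, and the filter kept it through arrays of the resistant lines alone.

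The labelled epithelial tumour type was checked against markers of epithelium and of other cell types. All 10 epithelial markers were tested, and their median log2 signal lay between 11.5 and 11.8 on the arrays. Single markers moved within that, with CDH1 lower by 0.53 ± 0.09 in LR3 and by 0.30 ± 0.07 in LR2, KRT19 higher by 0.42 ± 0.09 in LR3 and ESRP1 higher by 0.55 ± 0.08 in LR2, against parental cells. Median signals were 3.38 to 3.80 for 8 fibroblast markers, 3.75 to 4.24 for 7 leukocyte markers and 4.66 to 4.81 for 8 endothelial markers. LUM was the 1 fibroblast marker that passed the filter, through the LR3 arrays alone, with 6.12 on both, against 3.26 to 4.03 in parental cells and 4.20 to 4.70 in LR2 cells, all under the floor. It was called higher in LR3 against parental cells (adjusted p = 0.000207), at least 1.69-fold, and no size is given for LR2 against parental cells because both lie under the floor. The other 7 fibroblast markers were too dim to test. The part of other cells in the results was not tested. KDR fell by 0.44 in LR3 and 0.23 in LR2. The median signal of the LR2 ceritinib array stood above that of the other 7 arrays by 0.10 or more, and no member call in LR2 against parental cells was lost without that array.

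The tested genes whose levels ran most like each member over the 8 arrays were listed from 1018 genes that spanned at least 1 log2 unit. The 8 arrays form 3 lines, so such correlations mostly describe line means. BPIFA1 ran most like S100A9 (Pearson r = 0.991), ANTXR1 (0.99) and GPC6 (0.989). SCGB3A1 ran most like CXCL17 (0.994), COMMD6 (0.994) and PITX1 (0.993), and LAMP3 most like CYFIP2 (0.994), SYTL4 (0.989) and CD44 (0.985). SFTPA1 ran most like DMKN (0.984), STOM (0.983) and EPHA3 (0.978), and EPHA3 (0.993) led for SFTPA2. TNNT1 led for both PAEP (0.994) and WFDC2 (0.99).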

How the data were processed

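RNA of 8 conditions was hybridised to 1 single-colour array each, amplified and biotin-labelled with a 3' IVT kit per the labels' protocols. The authors deposited 1 log2 signal per probe set and array, made with RMA per the submitters' processing notes. Its software, version and annotation build are not given in the sources used here. Of 49395 probe sets, 102 were controls and 44988 others had 1 gene symbol. Each of 18132 genes took its brightest probe set, and 10527 exceeded 5.36, the 50th percentile of all values, in at least 2 arrays. No further normalization was applied. Differences came from limma 3.58.1 in R 4.3.3, with line and agent as terms (3 residual and 4.99 prior degrees of freedom) or 6 line by inhibitor cells (2 and 3.43). Values after ± are limma standard errors unless named SD. The fitting was tested on simulated data. Because LR3 had no crizotinib array, fitted differences need not equal means of matched pairs.

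All 10 genes of the group are named. Other genes are up to 4 called genes of each list with the largest differences, and the 3 genes most like each member. The members and lists were chosen with earlier results of these data known. FASN, SCD, NKX2-1, NAPSB and the chromosomal neighbours were added after their values were seen. Neighbours and promoters came from RefSeq on GRCh38.p14, with a promoter entry for 9 of 10 members. Alternatives changed the normalization, centring, filter, prior, probe set choice, agent term and arrays.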

Additional observations from a re-analysis of the deposited data

How the results depend on the processing

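Every condition had 1 array, and the number of arrays limits each value. Of 477 alternative values of members in line comparisons, 454 kept direction and call, 15 lost the call and 8 changed sign. All calls of members in LR2 against parental cells held under every alternative that kept the gene. Probe sets carry suffixes for several genes (s), possible cross-hybridization (x) or several transcripts of 1 gene (a). Of the 10 leading probe sets, 4 carried s or x and 4 carried a. Without all 3 kinds, LAMP3 was the 1 member left in the test. Without s and x alone, an alternative chosen after seeing the data, SFTPA1, SFTPA2 and SFTPB left the test, the line counts moved by less than 1.5 times and ceritinib had 22 calls. On the 2 matched pairs alone, LR3 against parental cells gave 0 calls over all genes with limma (3092 at an unadjusted p under 0.05), and the 5 member calls were lost with differences still of the same sign (BPIFA1 -3.44, adjusted p = 0.0788, SFTPA1 -1.83, adjusted p = 0.0966). Genes called in LR2 against parental cells numbered 2369, and 647 without suffixed probe sets, 1478 without the agent term and 1146 to 2116 with 1 array left out. In LR3 against parental cells the 2274 calls became 450 without suffixed probe sets and 632 to 2311 with 1 array left out. In LR3 against LR2 cells the 2064 calls became 459, 544 on matched arrays, and 710 to 2630. For crizotinib the 396 calls became 258 after quantile normalization, 151 without the filter, 797 with the intensity trend, 232 with every probe set fitted, 92 without suffixed probe sets and 0 to 1529 with 1 array left out. For ceritinib the calls became 61 with the trend, 3 without suffixed probe sets and 0 to 3 with 1 array left out, and for ceritinib against crizotinib 0 to 401. Calls higher in LR2 against parental cells were 1350 of 2369, and 1177 of 2584 after quantile normalization. In LR3 they were 1003 of 2274 against parental cells and 767 of 2064 against LR2 cells, and 1501 of 2724 and 1290 of 2393 with arrays centred on their medians. Signs turned only for differences near 0 that were called in no setting. With 1 array left out, SFTPB ranged from -0.103 to 0.004 in LR2 against parental cells, -0.123 to 0.01 in LR3 against parental cells and -0.0667 to 0.0483 in LR3 against LR2 cells, and WFDC2 from -0.177 to 0.00333 in LR3 against parental cells. SFTPB in LR3 against LR2 cells was 0.0475 after quantile normalization and 0.0492 after centring. For ceritinib, SFTPB ranged from -0.074 to 0.025 and SCGB3A1 from -0.0227 to 0.0973 with 1 array left out, and SCGB3A1 was -0.0233 after centring. For crizotinib the ranges were -0.0617 to 0.0533 for SFTPA1, -0.04 to 0.0633 for NAPSA, -0.137 to 0.0883 for SCGB3A1 and -0.153 to 0.112 for BPIFA1. The causes were not tested. Arrays were matched by agent, through the agent term and the matched pairs, and the labels give no replicate number to match by.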

Other observations

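B3GNT5, a glycosyltransferase gene 2 places from LAMP3 on chromosome 3, was called in the same directions as LAMP3, at -0.61 in LR3 (adjusted p = 0.00492) and 1.15 in LR2 (adjusted p = 0.000149) against parental cells. MCCC1, on the other side of LAMP3, rose by 0.64 in LR2 (adjusted p = 0.00359) and was not called in LR3 (0.14, adjusted p = 0.415). ZCCHC24, 3 places from SFTPA2, fell by 0.58 in LR3 against parental cells (adjusted p = 0.046), while LOC729815, which lies between them, was not called (0.07, adjusted p = 0.601). SFTPA1 and SFTPA2 are themselves near neighbours in that order. Neighbours of SFTPB, which was itself not called, were called too. ST3GAL5, 3 places from SFTPB, was 0.84 higher in LR3 (adjusted p = 0.00202) and 0.58 higher in LR2 (adjusted p = 0.00406). C2orf68, next to SFTPB, differed by -0.33 in LR2 (adjusted p = 0.0267). Most other tested neighbours of members were called in neither line against parental cells. The neighbours named here were picked after their values were seen.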
